A study of Astyanax mexicanus with 12 samples.

Results

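The ovaries of starved Tinaja cavefish were compared with the ovaries of starved surface fish of the same species, Astyanax mexicanus, by sequencing RNA from whole right ovaries. The comparison takes 6 of the 12 libraries of the study, those of 3 starved Tinaja females and 3 starved surface females, chosen by their labels alone. The other 6 libraries come from 3 control Tinaja females and 3 control surface females, and they are used below to ask whether a population difference seen in starved fish was also measured in control fish. All 12 fish carry the label wild type and were aged about 660 days after fertilisation. Tinaja is a cave population of a fish whose river-dwelling surface populations have eyes and pigment. The labels do not state the length of the fast. They also do not state whether replicates share a tank or family, so p-values below reflect only how much these samples spread.

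Cave populations of this fish live with scarce and irregular food and are known for fat storage, altered insulin and melanocortin signalling, loss of pigment and eyes, and shifted daily rhythms. A fish ovary holds oocytes of many stages, each wrapped in granulosa cells, which receive gonadotropins and make estrogen, and in theca cells, which make the androgen that granulosa cells convert. Oocytes store maternal transcripts, build the egg coat and take up yolk protein from the blood through lipoprotein receptors, so egg growth draws on the food reserves of the mother.

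The 6 libraries held 5949155 to 7973058 reads on genes in starved Tinaja ovaries and 7779996 to 10198881 in starved surface ovaries. A level of 3 reads corresponded to 0.372 to 0.492 CPM, the read count of a gene scaled for the size of its library by trimmed means, in starved Tinaja ovaries and to 0.323 to 0.407 CPM in starved surface ovaries, so values near or below that rest on a few reads. Intervals given below cover counting error only. Reads that mapped to several places made up 12.5% to 16.8% of reads in starved Tinaja ovaries and 9.91% to 11.9% in starved surface ovaries, and the part of this in the differences below was not tested. The 10 most abundant genes took 2.66% to 2.86% of gene reads in starved Tinaja ovaries and 3.44% to 3.88% in starved surface ovaries. Across genes, log expression correlated at 0.968 to 0.977 between libraries of the same starved group and at 0.894 to 0.900 between the groups. The tissue label held in both groups, since oocyte genes were among the abundant ones. The germline helicase gene ddx4, for example, averaged 601 ± 22.2 CPM in starved Tinaja ovaries and 663 ± 35.7 CPM in starved surface ovaries (SD, n = 3 each). Genes that define granulosa cells in other fish were scarce, with 0 and 2 reads of foxl2a and 18 and 16 reads of amh summed over the starved Tinaja and the starved surface libraries.

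Of 14627 genes tested, 5894 differed between starved Tinaja and starved surface ovaries at an adjusted p under 0.05 (edgeR quasi-likelihood test with Benjamini-Hochberg adjustment), which is 40.3% of them. Of these, 2963 (20.3% of genes tested) were higher and 2931 (20%) were lower in starved Tinaja ovaries. The groups did not overlap for 7683 genes, 52.5% of those tested. The median log2 difference over all genes tested was 0.01, and the median called gene differed 1.75-fold. Among genes called, 2221 differed by less than 1.5-fold and 2542 by at least 2-fold, of which 1531 were higher and 1011 lower in starved Tinaja ovaries. At 8-fold or more, 453 genes were higher and 320 lower. The direction of the calls moved with abundance. Of 2548 genes averaging 100 CPM or more over the 6 ovaries, 256 were called higher and 886 lower in starved Tinaja ovaries, with a median fold of 1.27. Of 4295 genes averaging 1 to 10 CPM, 1068 were called higher and 615 lower, with a median fold of 4.45.

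**Figure D1:**
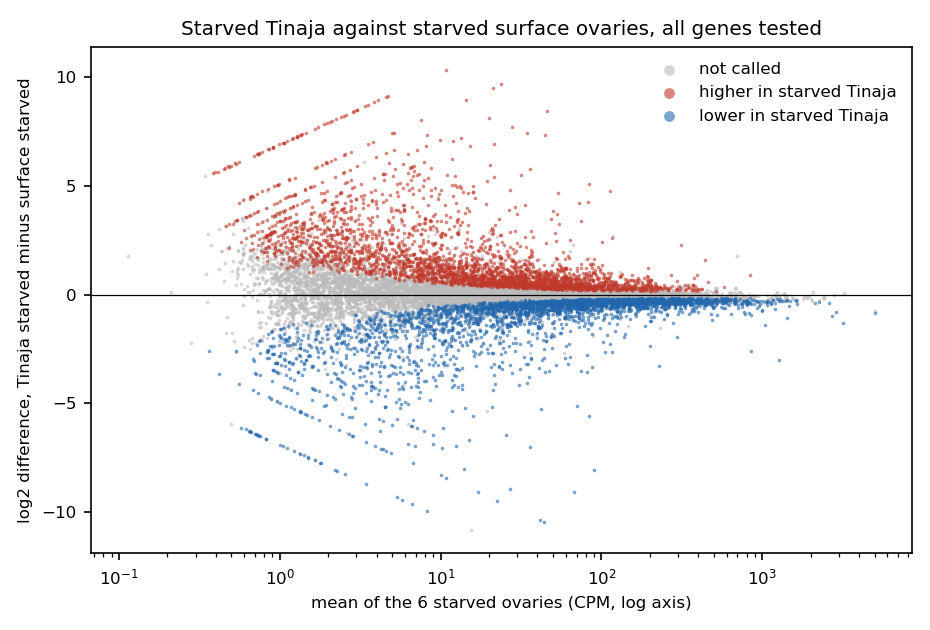
Each point is one of the 14627 genes tested, with its mean CPM over the 6 starved ovaries on a log axis and its log2 difference, Tinaja starved minus surface starved, on the vertical axis. Red points (2963) were called higher and blue points (2931) lower in starved Tinaja ovaries, and called genes above 100 CPM lie mostly below 0.

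The largest rises in starved Tinaja ovaries were in genes with few reads in starved surface ovaries. cdh7a, a cadherin of cell adhesion, had 36.3, 42.2 and 40.4 CPM in starved Tinaja ovaries, against 0.136, 0.134 and 0.108 CPM in starved surface ovaries. mapkapk2b, a stress-activated protein kinase gene, had 49.2, 94.8 and 60.7 CPM in starved Tinaja ovaries, against 0.815, 0 and 0.323 CPM in starved surface ovaries. GRIN2B, a glutamate receptor subunit gene best known from neurons, had 81.7, 45.9 and 37.4 CPM in starved Tinaja ovaries, against 0, 0.268 and 0.431 CPM in starved surface ovaries. In each of these 3 genes the highest surface ovary stood far below the lowest Tinaja ovary, with log2 differences of 8.13 ± 0.28, 7.45 ± 0.48 and 7.70 ± 0.58 and edgeR adjusted p of 2.12e-09, 1.44e-06 and 5.34e-06. Leaving out surface ovary 1 moved mapkapk2b to 8.45 and leaving out surface ovary 3 moved GRIN2B to 8.50. For cdh7a the starved surface ovaries held 1 read each, so its ratio of reads, Tinaja over surface, was 318 (95% counting interval 109 to 1550). clmnb had 79.4, 108 and 87.8 CPM in starved Tinaja ovaries, against 0.407, 0.268 and 0.108 CPM in starved surface ovaries. quo had 46.5, 22.8 and 11 CPM in starved Tinaja ovaries, against 0.136, 0.268 and 0.108 CPM in starved surface ovaries. Both were called, with log2 differences of 8.43 ± 0.46 and 7.20 ± 0.70, the second of which became 6.54 without Tinaja ovary 1. The other genes of this group had 1 or 2 reads over the 3 starved surface ovaries. tenm4, a teneurin of cell contact, had 109, 190 and 297 reads in starved Tinaja ovaries and 1, 0 and 0 in starved surface ovaries. Its ratio was 657 (95% counting interval 117 to 26000), and its call was lost with limma voom at an adjusted p of 0.0695. ADGRD1, an adhesion G protein-coupled receptor gene, had a ratio of 235 (95% counting interval 41.7 to 9320), and ppil6, a cyclophilin gene, a ratio of 196 (95% counting interval 53.9 to 1630). All 8 genes of this group were also called higher in control Tinaja ovaries.

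The largest falls were equally steep. CDH13, an unusual cadherin held to the membrane by a lipid anchor, had 0.259, 0.248 and 0.164 CPM in starved Tinaja ovaries, against 145, 112 and 148 CPM in starved surface ovaries. Its log2 difference was -9.11 ± 0.21 with an edgeR adjusted p of 8.40e-11, and every surface ovary stood far above every Tinaja ovary. lrit3a, a leucine-rich repeat protein gene known from the retina, had 1, 0 and 0 reads in starved Tinaja ovaries and 714, 618 and 774 in starved surface ovaries. ahsg2, a fetuin gene of the liver-type plasma proteins, had 0, 0 and 1 reads against 348, 327 and 411. MFSD12, a transporter gene of pigment organelles and lysosomes, had 0, 1 and 0 reads in starved Tinaja ovaries against 256, 314 and 237 in starved surface ovaries. These 3 genes had almost no reads in starved Tinaja ovaries and many in all 3 starved surface ovaries. With 1 read on the low side, the ratio of surface to Tinaja was 1910 (95% counting interval 342 to 75500) for lrit3a, 985 (95% counting interval 176 to 38900) for ahsg2 and 732 (95% counting interval 131 to 28900) for MFSD12. These 3 genes and CDH13 were called lower in control Tinaja ovaries too. nqo1, a quinone reductase gene of the antioxidant response, differed in the controls. One of its 2 copies had 1, 0 and 1 reads in starved Tinaja ovaries and 433, 359 and 502 in starved surface ovaries, a ratio of surface to Tinaja of 587 (95% counting interval 162 to 4850). In control fish the same copy had 0, 27.5 and 31.8 CPM in control Tinaja ovaries, against 62.2, 66.4 and 58.8 CPM in control surface ovaries. It thus had no read in 1 control Tinaja ovary and was read in the other 2.

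A few genes had no read at all on one side. There were 11 genes with 0 reads in the 3 starved surface ovaries and at least 20 reads in each starved Tinaja ovary, of which 7 also had 0 reads in the control surface ovaries, and 6 carry a gene name. With 3 reads over a group as the floor, six7, a homeobox gene of eye development, was at least 74.2-fold higher in starved Tinaja ovaries, where it had 131, 33 and 38 reads. matn1, a cartilage matrix protein gene, was at least 53.7-fold higher. One of 2 genes under the symbol GRIN2A, a partner subunit of GRIN2B in glutamate receptors, was at least 44.5-fold higher, while the other had 18 reads over the starved Tinaja and 17 over the starved surface ovaries and was not tested. For syt5b, a synaptotagmin gene, the bound was 41.9-fold. The Tinaja reads of these genes came from all 3 starved ovaries, and six7 had most of its reads in Tinaja ovary 1. In the other direction 9 genes had 0 reads in starved Tinaja ovaries and at least 20 in each starved surface ovary, of which 5 also had 0 reads in control Tinaja ovaries, and 4 carry a gene name. They were col28a1a, a collagen gene, at least 124-fold lower in starved Tinaja ovaries, plpp7a, a phospholipid phosphatase-related gene, at least 95.5-fold lower, NRN1L, a neuritin-like gene, at least 51.4-fold lower, and uts2a, a urotensin peptide gene, at least 22.1-fold lower. The 20 genes are counted from the reads as deposited. Whether reads of both populations map equally well to these genes, and to those of the largest rises and falls, was not tested.

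All 9 tested genes of the egg coat list were lower in starved Tinaja ovaries. The list holds genes of the zona pellucida proteins, which build the envelope around the fish egg, and ZPLD1, described below. Of the 9 tested genes 0 were called higher and 9 lower, against 20% of all genes called lower. The number called lower was 8 with limma voom, no low-count filter, a replicate block or the 6 starved libraries alone. It was also 8 without any 1 ovary other than surface ovary 1. zpax1 had 738, 757 and 731 CPM in starved Tinaja ovaries, against 1302, 1237 and 1242 CPM in starved surface ovaries. zp2l2 had 526, 578 and 544 CPM in starved Tinaja ovaries, against 1109.9, 1046 and 904 CPM in starved surface ovaries. zp3e had 863, 941 and 866 CPM in starved Tinaja ovaries, against 1283, 1210.4 and 1243 CPM in starved surface ovaries. In each of these genes the 3 Tinaja ovaries lay together, below all 3 surface ovaries. Their log2 differences were -0.76 ± 0.10 for zpax1, -0.89 ± 0.14 for zp2l2 and -0.48 ± 0.10 for zp3e, with edgeR adjusted p of 0.000149, 0.000658 and 0.00306. zp3d.2 had 129.8, 146 and 141 CPM in starved Tinaja ovaries, against 179, 197 and 218 CPM in starved surface ovaries, again with no overlap (log2 difference -0.51 ± 0.08, edgeR adjusted p 0.000334). To complete the list, zp2l1 averaged 573 against 1116 CPM, zp3c 444 against 662 CPM, zp3f.2 250.2 against 339 CPM and zp3f.1 93 against 147 CPM, the starved Tinaja mean being given first. ZPLD1, which shares the zona pellucida domain but is known from the inner ear in other vertebrates, averaged 2.45 against 6.58 CPM. The summed level of the 9 genes was 3550.0 to 3890.0 CPM in starved Tinaja ovaries and 5700.0 to 6450.0 CPM in starved surface ovaries, and the median log2 difference was -0.66. In control fish 1 of the 9 genes was called, lower in Tinaja, and the median was -0.21. The test of the difference between the starved and the control contrast called none of the 9. In RNA from whole ovaries, fewer cells of a type and less RNA per cell cannot be told apart, and this holds for every cell-type gene below.

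Other maternal genes of the oocyte were lower more often than higher. In the list of oocyte maternal genes, 5 of 38 tested genes were called higher and 16 lower, with a median log2 difference of -0.22. Called genes made up 55.3% of the list, against 40.3% of all genes. gdf9 and bmp15 encode growth factors that oocytes send to granulosa cells. gdf9 had 55.2, 55.6 and 54.1 CPM in starved Tinaja ovaries, against 74.3, 63.9 and 78.6 CPM in starved surface ovaries. bmp15 had 113, 116 and 108 CPM in starved Tinaja ovaries, against 135, 137 and 166 CPM in starved surface ovaries. Neither gene overlapped between groups, and the log2 differences were -0.40 ± 0.09 and -0.37 ± 0.08 (edgeR adjusted p 0.00441 and 0.00347). bmb, which acts in nuclear fusion in the early zebrafish embryo, averaged 584 ± 26.3 CPM in starved Tinaja ovaries and 752 ± 23 CPM in starved surface ovaries. celf1, an RNA-binding protein gene, averaged 212 ± 7.0 CPM in starved Tinaja ovaries and 288 ± 8.11 CPM in starved surface ovaries. Both were called lower, with log2 differences of -0.36 and -0.44. zar1, needed for the early embryo and for oocyte growth in zebrafish, had 626, 785 and 728 CPM in starved Tinaja ovaries, against 932, 884 and 989.8 CPM in starved surface ovaries. Its adjusted p of 0.0321 (edgeR) did not hold without Tinaja ovary 1 or 3 or without surface ovary 1 or 3. Among the 5 maternal genes called higher, ca15b, a carbonic anhydrase gene of the oocyte and germ plasm, had 53.5, 45.2 and 51.5 CPM in starved Tinaja ovaries, against 4.35, 2.95 and 2.91 CPM in starved surface ovaries (log2 difference 3.88 ± 0.23, edgeR adjusted p 2.47e-07). A copy of KIF5B, a kinesin gene, averaged 186 against 117 CPM and was also called higher, while its second copy was not called. The number called higher was 3 without Tinaja ovary 1, surface ovary 1 or surface ovary 2. The number called lower was 12 with upper-quartile scaling and without Tinaja ovary 1, Tinaja ovary 3 or surface ovary 1. In control fish the list had 9 genes higher and 3 lower in Tinaja, with a median of 0.09. None of the 38 genes was called for the difference between the contrasts.

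**Figure D2:**
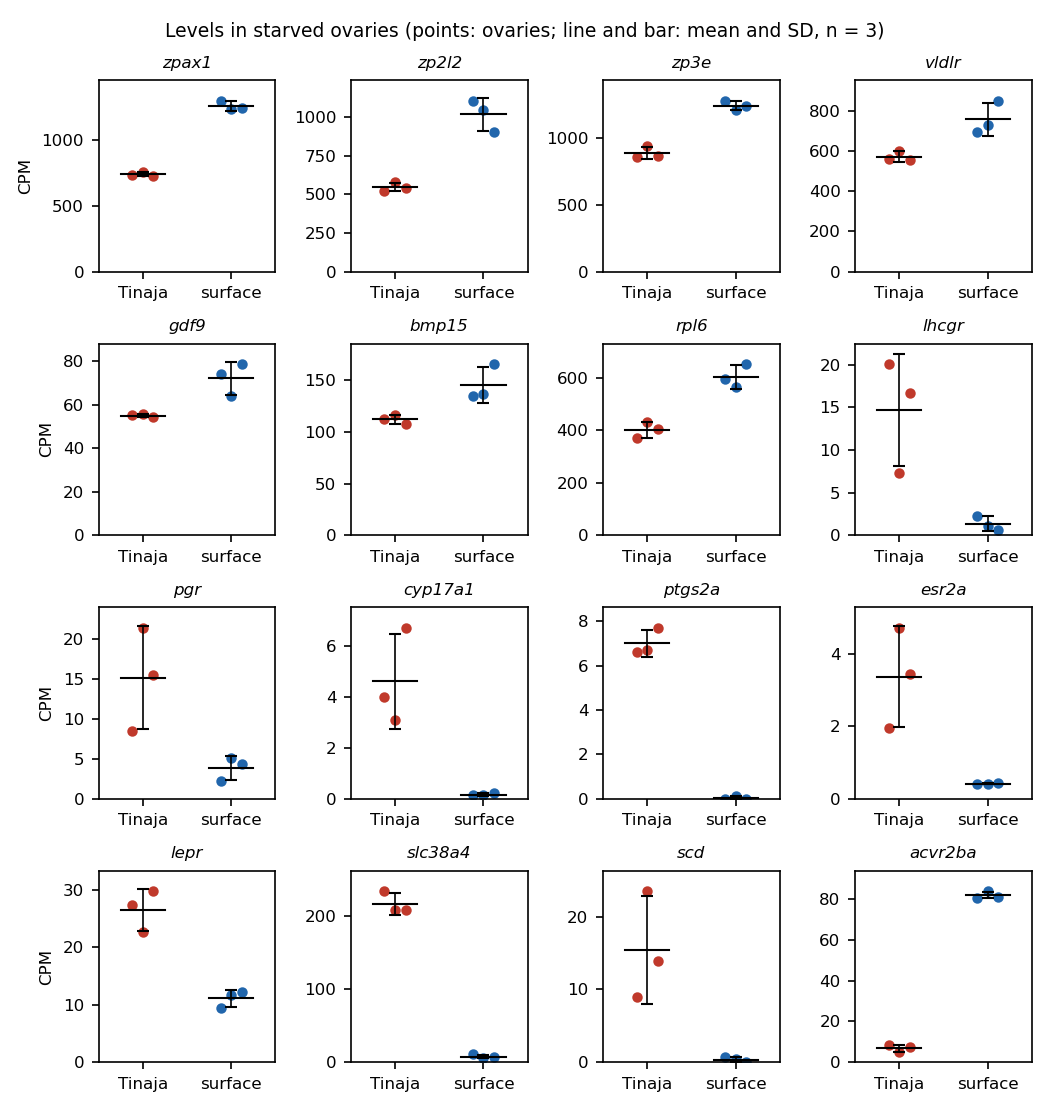
Levels in CPM of 16 genes in starved ovaries, Tinaja on the left and surface on the right of each panel, with a point per ovary, the mean as a line and the SD as a bar (n = 3). The egg coat, oocyte and ribosomal genes from zpax1 to rpl6 lie lower in Tinaja ovaries, the next 8 genes from lhcgr to scd lie higher, and acvr2ba lies lower.

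Germline genes of meiosis and the piRNA pathway, which silences transposons in germ cells, were mixed. In this list 5 of 29 tested genes were called higher and 9 lower, 48.3% of the list against 40.3% of all genes. The median of -0.12 turned to 0.0154 without surface ovary 1. mei4, which helps start meiotic recombination, had 40.3, 43.8 and 35.3 CPM in starved Tinaja ovaries, against 85.6, 101 and 71.2 CPM in starved surface ovaries (log2 difference -1.11 ± 0.14, edgeR adjusted p 8.67e-05). asz1, a piRNA pathway gene, averaged 39.7 ± 2.1 CPM in starved Tinaja ovaries and 59.5 ± 5.08 CPM in starved surface ovaries, and tdrd7b, a Tudor-domain gene of the germ plasm, averaged 0.701 ± 0.324 CPM in starved Tinaja ovaries and 6.79 ± 1.89 CPM in starved surface ovaries. Both were called lower. rec8b, a meiotic cohesin gene, had 16, 17 and 15 reads in starved Tinaja ovaries and none in starved surface ovaries, at least 17.6-fold higher. ddx4 was not called (log2 difference -0.14 ± 0.09, edgeR adjusted p 0.238). The number called higher was 3 without Tinaja ovary 2 or 3 or surface ovary 1 or 2, and 2 without surface ovary 3.

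Genes of protein synthesis and cell division leaned lower in starved Tinaja ovaries. Over all genes averaging 100 CPM or more, 256 of 2548 were called higher and 886 lower. Whether any list in this report differs from other genes of like abundance was not tested. Among genes of the cytosolic ribosome, 1 of 79 tested genes were called higher and 32 lower, with a median of -0.25. That is 41.8% of the list against 40.3% of all genes. rpl6 had 371, 432 and 404 CPM in starved Tinaja ovaries, against 595, 564 and 652 CPM in starved surface ovaries. rps9 averaged 169 ± 14.2 CPM in starved Tinaja ovaries and 287 ± 26.5 CPM in starved surface ovaries. rpl30 averaged 145 against 223 CPM and rpl36a 173 against 263 CPM, starved Tinaja first. All 4 of these large and small subunit genes were called lower, with log2 differences of -0.59 for rpl6, -0.76 for rps9, -0.62 for rpl30 and -0.61 for rpl36a. The number called lower depended on single ovaries. It was 13 without Tinaja ovary 1, 18 without Tinaja ovary 3 and 13 without surface ovary 3, and 41 without Tinaja ovary 2. In control ovaries the list ran the other way, with 13 genes higher and 1 lower in Tinaja and a median of 0.16, yet none of the 79 genes was called for the difference between the contrasts. In the list for the mitochondrial ribosome, 9 of 74 tested genes were called higher and 13 lower (6 lower without Tinaja ovary 3). Calls covered 29.7% of that list, against 40.3% of all genes. mrps34 averaged 52.5 ± 7.02 CPM in starved Tinaja ovaries and 17.8 ± 0.273 CPM in starved surface ovaries, and mrps28 averaged 29.2 ± 3.18 CPM in starved Tinaja ovaries and 84.4 ± 3.79 CPM in starved surface ovaries. These changes in both directions were of similar size, with log2 differences of 1.56 and -1.53.

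Nuclear genes of oxidative phosphorylation, the mitochondrial chain that makes ATP, and genes of the proteasome, which degrades tagged proteins, had more genes called lower than higher. In the oxidative phosphorylation list, 6 of 85 tested genes were called higher and 18 lower, which is 28.2% of the list against 40.3% of all genes (11 lower without surface ovary 3, 3 higher without Tinaja ovary 2 or surface ovary 2). sdha, a subunit of complex II, had 96, 118 and 105 CPM in starved Tinaja ovaries, against 158, 168 and 161 CPM in starved surface ovaries. UQCR11, of complex III, averaged 20.7 ± 4.96 CPM in starved Tinaja ovaries and 61.1 ± 7.1 CPM in starved surface ovaries, and ndufc1, of complex I, averaged 30.6 ± 2.43 CPM in starved Tinaja ovaries and 13.1 ± 2.16 CPM in starved surface ovaries. sdha and UQCR11 were called lower and ndufc1 higher, with log2 differences of -0.61, -1.55 and 1.23. The control contrast had 23 higher and 10 lower in this list. Among proteasome genes, 4 of 50 tested genes were called higher and 15 lower, 38% of the list (2 higher without Tinaja ovary 2). psmd2, a subunit of the regulatory cap, averaged 280.0 ± 10.6 CPM in starved Tinaja ovaries and 369 ± 27.5 CPM in starved surface ovaries. psme2, of the activator used in immune cells, averaged 3.08 ± 0.952 CPM in starved Tinaja ovaries and 11.4 ± 1.52 CPM in starved surface ovaries. Both were called lower. Among cell cycle genes, 4 of 54 tested genes were called higher and 18 lower, 40.7% of the list, with a median of -0.15. cenpe, a kinetochore motor gene and the most abundant of those named here, had 966, 949 and 872 CPM in starved Tinaja ovaries, against 1475, 1431 and 1465 CPM in starved surface ovaries. mcm5, a helicase subunit of DNA replication, averaged 198 ± 7.87 CPM in starved Tinaja ovaries and 283 ± 9.42 CPM in starved surface ovaries, and kif20a, a mitotic kinesin gene, averaged 119 ± 6.96 CPM in starved Tinaja ovaries and 179.6 ± 35.3 CPM in starved surface ovaries. wee1, which holds back entry into mitosis, was called higher, with 68.5, 69.6 and 64 CPM in starved Tinaja ovaries, against 33.3, 46.2 and 37.1 CPM in starved surface ovaries. Among genes of chromatin and DNA methylation, 10 of 104 tested genes were called higher and 35 lower, 43.3% of the list. NSD3, a histone methyltransferase gene, averaged 67.2 ± 7.54 CPM in starved Tinaja ovaries and 141 ± 18.6 CPM in starved surface ovaries, and KDM2A, a histone demethylase gene, averaged 269 ± 14.6 CPM in starved Tinaja ovaries and 381 ± 16.6 CPM in starved surface ovaries. Both were called lower in starved and in control Tinaja ovaries, and the control contrast had 9 higher and 28 lower in this list.

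Several genes of the hormone-making follicle wall were higher in starved Tinaja ovaries. Among granulosa markers, 7 of 12 tested genes were called higher and 0 lower (1 lower without surface ovary 1), with a median log2 difference of 2.18. Called genes made up 58.3% of the list, against 40.3% of all genes. The number called higher was 5 without Tinaja ovary 2 or 3 or surface ovary 1 or 2, and with thinned libraries. It was 6 with limma voom or a replicate block and 8 without surface ovary 3. The list held 28 genes, and 16 of them did not pass the filter on low counts. Reads of these untested genes went in both directions. Over the starved Tinaja and the starved surface ovaries, nr5a1b had 1 and 19 reads and fsta 6 and 20. In the other direction, inhbaa had 23 and 6 reads and hsd17b1 15 and 3. lhcgr, the receptor through which luteinizing hormone acts, had 20.1, 7.32 and 16.7 CPM in starved Tinaja ovaries, against 2.31, 1.07 and 0.646 CPM in starved surface ovaries. The lowest Tinaja ovary was above the highest surface ovary, and the log2 difference was 3.47 ± 0.46 (edgeR adjusted p 0.000131), or 4.09 without surface ovary 1. nr5a1a, a transcription factor gene of steroid-making cells, averaged 5.74 ± 2.51 CPM in starved Tinaja ovaries and 1.23 ± 0.329 CPM in starved surface ovaries. igf3, an insulin-like growth factor of fish gonads, averaged 3.4 ± 1.85 CPM in starved Tinaja ovaries and 0.514 ± 0.379 CPM in starved surface ovaries. foxl2b, a forkhead gene of ovarian fate, averaged 1.57 ± 0.221 CPM in starved Tinaja ovaries and 0.288 ± 0.0309 CPM in starved surface ovaries. All 3 were called higher, with log2 differences of 2.21, 2.71 and 2.37, the second being 3.44 without surface ovary 1. The other 3 genes called higher were the inhibin subunit genes inha and inhbb and the transcription factor gene wt1a. fshr, the receptor for follicle-stimulating hormone, had 2.2, 1.61 and 3.61 CPM in starved Tinaja ovaries, against 1.49, 0.803 and 1.4 CPM in starved surface ovaries. cyp19a1a, the aromatase that makes estrogen, had 0.13, 0.62 and 1.64 CPM in starved Tinaja ovaries, against 0, 0 and 0.431 CPM in starved surface ovaries. Neither was called, at an edgeR adjusted p of 0.149 and 0.139. cyp19a1a rested on a single surface ovary and a single Tinaja ovary, since its log2 difference of 2.14 was 1.16 without Tinaja ovary 3 and 5.51, with an adjusted p of 0.0386, without surface ovary 3. The summed level of the granulosa list was 39 to 58.2 CPM in starved Tinaja ovaries and 23.4 to 30.6 CPM in starved surface ovaries. In control fish 2 of the 12 genes were called higher, with a median of 0.70, and none was called for the difference between the contrasts.

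Genes of steroid synthesis differed in both directions. In the theca and steroid synthesis list, 4 of 10 tested genes were called higher and 1 lower, against 20.3% and 20% of all genes. The summed level of the list ran the other way, at 398 to 439 CPM in starved Tinaja ovaries and 516 to 585 CPM in starved surface ovaries, since the abundant hsd17b12a was lower. cyp17a1, whose enzyme commits steroids to androgens, had 4.02, 3.1 and 6.73 CPM in starved Tinaja ovaries, against 0.136, 0.134 and 0.215 CPM in starved surface ovaries (log2 difference 4.66 ± 0.64, edgeR adjusted p 0.000173). hsd3b2, which acts beside it, averaged 2.35 ± 1.15 CPM in starved Tinaja ovaries and 0.207 ± 0.0692 CPM in starved surface ovaries. The 2 copies of hsd17b12 moved apart. hsd17b12b had 15.8, 15.8 and 14.6 CPM in starved Tinaja ovaries, against 6.93, 5.76 and 6.25 CPM in starved surface ovaries, while hsd17b12a had 307, 351 and 345 CPM in starved Tinaja ovaries, against 515, 446 and 479.9 CPM in starved surface ovaries. Both differences were called, with log2 differences of 1.28 ± 0.19 and -0.52 ± 0.09. star, the carrier that brings cholesterol into mitochondria, had 17 reads over the starved Tinaja ovaries and none over the starved surface ovaries and was not tested.

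Receptors for steroids changed in both directions. Among them, 8 of 20 tested genes were called higher and 4 lower, 60% of the list against 40.3% of all genes. pgr, the nuclear progestin receptor needed for ovulation in zebrafish, had 8.55, 21.5 and 15.6 CPM in starved Tinaja ovaries, against 2.17, 5.09 and 4.42 CPM in starved surface ovaries (log2 difference 1.96 ± 0.38, edgeR adjusted p 0.00177). esr2a, an estrogen receptor gene, had 1.94, 4.71 and 3.45 CPM in starved Tinaja ovaries, against 0.407, 0.402 and 0.431 CPM in starved surface ovaries (log2 difference 2.97 ± 0.51, edgeR adjusted p 0.000806). For both receptors the Tinaja ovaries spread widely but stayed above the surface ovaries. esrra, an orphan receptor of energy metabolism, averaged 66.2 ± 5.57 CPM in starved Tinaja ovaries and 33.5 ± 5.64 CPM in starved surface ovaries and was called higher. nr3c2, the mineralocorticoid receptor, had 0.518, 0.744 and 0.82 CPM in starved Tinaja ovaries, against 5.02, 5.76 and 7.97 CPM in starved surface ovaries, and esrrgb, another orphan receptor, averaged 1.14 ± 0.356 CPM in starved Tinaja ovaries and 12.7 ± 5.38 CPM in starved surface ovaries. Both were called lower. Of the 2 glucocorticoid receptor genes, NR3C1 averaged 3.59 ± 1.72 CPM in starved Tinaja ovaries and 1.14 ± 0.407 CPM in starved surface ovaries and was called higher (log2 difference 1.64 ± 0.50, edgeR adjusted p 0.0218), while nr3c1 averaged 9.25 ± 2.59 CPM in starved Tinaja ovaries and 8.14 ± 0.502 CPM in starved surface ovaries and was not called (edgeR adjusted p 0.58). The log2 difference of nr3c1 was 0.18, and it turned to -0.05 without Tinaja ovary 3.

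Ovulation genes act when the follicle wall opens and include lhcgr and pgr. Among them, 7 of 19 tested genes were called higher and 1 lower, with a median of 1.31 that was 0.673 without Tinaja ovary 2. Calls covered 42.1% of the list, against 40.3% of all genes. The 1 lower call was lost with limma voom and without any 1 ovary other than surface ovary 3. ptgs2a, the inducible cyclooxygenase that makes prostaglandins, had 6.61, 6.7 and 7.71 CPM in starved Tinaja ovaries, against 0, 0.134 and 0 CPM in starved surface ovaries. pla2g4aa, the phospholipase that releases its substrate, had 3.11, 1.74 and 6.73 CPM in starved Tinaja ovaries, against 0.136, 0 and 0 CPM in starved surface ovaries. Each had a single read over the 3 starved surface ovaries, so the ratios of Tinaja to surface were 168 (95% counting interval 29.6 to 6660) and 87.1 (95% counting interval 15.2 to 3480). The control contrast had 7 higher and 4 lower in this list, and ptgs2a and pla2g4aa were called higher there too.

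**Figure D3:**
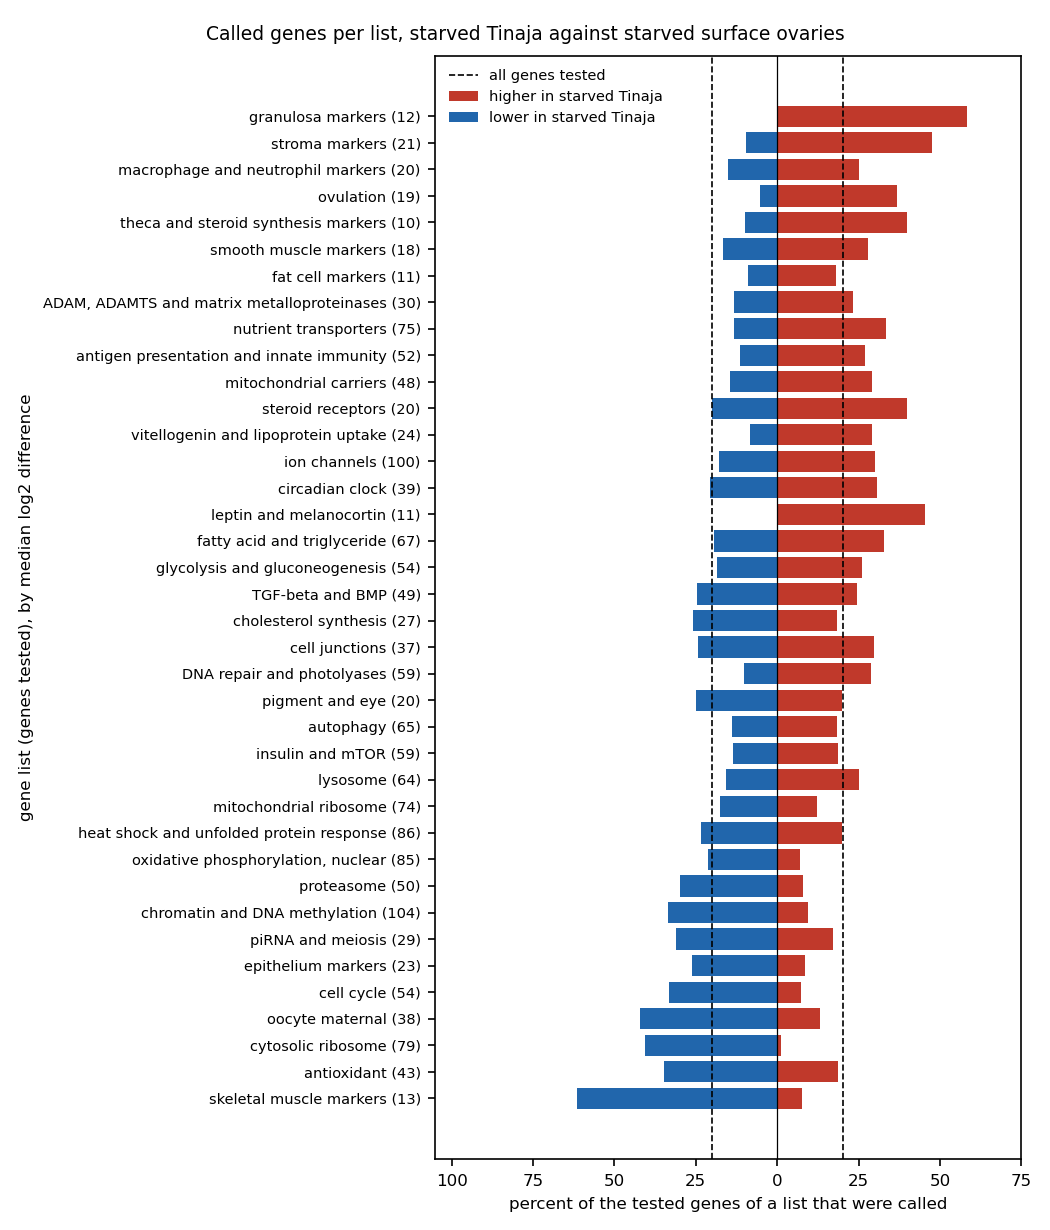
Percent of the tested genes of each list called higher (red, to the right) or lower (blue, to the left) in starved Tinaja against starved surface ovaries, for lists with at least 10 tested genes, ordered by median log2 difference. The dashed lines mark 20.3% higher and 20% lower over all genes tested, and granulosa markers (7 of 12 higher) and skeletal muscle markers (8 of 13 lower) stand at the ends.

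Markers of stroma were called higher more often than lower, and the balance among smooth muscle and leukocyte markers depended on the setting. Among stroma markers, 10 of 21 tested genes were called higher and 2 lower and the median was 1.79. Called genes made up 57.1% of the list, against 40.3% of all genes. fbn2b, a fibrillin gene, had 36.3, 34.1 and 24.4 CPM in starved Tinaja ovaries, against 6.79, 3.88 and 4.2 CPM in starved surface ovaries, and fn1b, a fibronectin gene, had 30.1, 43.5 and 25.1 CPM in starved Tinaja ovaries, against 6.38, 11.8 and 9.05 CPM in starved surface ovaries. COL14A1, a collagen of tendon and skin, ran the other way, with 1.04, 2.85 and 2.46 CPM in starved Tinaja ovaries, against 21.7, 17.1 and 17.2 CPM in starved surface ovaries, and so did fbln1, a fibulin gene, which averaged 14.6 ± 3.52 CPM in starved Tinaja ovaries and 37.3 ± 4.39 CPM in starved surface ovaries. The number of stroma genes called higher was 5 without Tinaja ovary 2, 6 without surface ovary 1 and 4 with limma voom. The summed level was 498 to 868 CPM in starved Tinaja ovaries and 468 to 547 CPM in starved surface ovaries, and Tinaja ovary 2 had the highest mean of the list among the 6 ovaries. Among smooth muscle markers, 5 of 18 tested genes were called higher and 3 lower, 44.4% of the list. Without Tinaja ovary 2 or surface ovary 1 the numbers were 3 higher and 3 lower. myh11a, smooth muscle myosin, had 32.8, 52.7 and 42 CPM in starved Tinaja ovaries, against 2.44, 2.81 and 5.92 CPM in starved surface ovaries (log2 difference 3.48 ± 0.29, edgeR adjusted p 5.01e-06), and CALD1, a caldesmon gene, averaged 3.62 ± 0.987 CPM in starved Tinaja ovaries and 0.592 ± 0.352 CPM in starved surface ovaries. Both are among the 5 smooth muscle markers called higher, and the 3 called lower are not described, so this pair does not stand for the list. Among macrophage and neutrophil markers, 5 of 20 tested genes were called higher and 3 lower and the median was 1.59. These calls made up 40% of the list, against 40.3% of all genes. PTPRC, the common leukocyte antigen, had 10.4, 8.56 and 8.04 CPM in starved Tinaja ovaries, against 0.272, 2.68 and 0.323 CPM in starved surface ovaries (log2 difference 3.06 ± 0.66, or 4.83 without surface ovary 2). irf8, a transcription factor gene of macrophages, averaged 1.67 ± 0.497 CPM in starved Tinaja ovaries and 7.65 ± 4.8 CPM in starved surface ovaries and was called lower, at -2.17, or -1.59 without surface ovary 1. The list had 1 higher and 2 lower without Tinaja ovary 2 or surface ovary 3, 2 higher and 3 lower without surface ovary 1, and 1 higher and 3 lower with limma voom. Without Tinaja ovary 2 its median was 0.753. Of 8 blood vessel markers 1 was called higher (4 without Tinaja ovary 1), and of 11 fat cell markers 2 higher and 1 lower. Of 8 red blood cell markers 2 were called higher and 1 lower. Called genes made up 12.5%, 27.3% and 37.5% of these lists, against 40.3% of all genes. Of 5 lymphocyte markers 2 were called higher and 2 lower, 80% of the list (0 higher without Tinaja ovary 3 or surface ovary 1). Of 5 testis markers 1 was called higher, 20% of the list. What part the cell makeup of the ovaries plays in the follicle genes above was not tested.

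Among markers of skin-type epithelium, muscle and liver, more genes were called lower than higher in starved Tinaja ovaries. In the epithelium list, 2 of 23 tested genes were called higher and 6 lower, and 34.8% of the list was called, against 40.3% of all genes. The number called higher was 4 without surface ovary 2, with DESeq2, with upper-quartile scaling and with the 6 starved libraries alone. tp63, an epithelial transcription factor gene, had 0.389, 0.372 and 0.164 CPM in starved Tinaja ovaries, against 5.98, 7.23 and 10.4 CPM in starved surface ovaries, spint1a, a protease inhibitor gene of epithelia, had 58.8, 47.3 and 66.6 CPM in starved Tinaja ovaries, against 189, 195 and 175 CPM in starved surface ovaries, and DSP, desmoplakin of cell junctions, averaged 141 ± 28.4 CPM in starved Tinaja ovaries and 286 ± 10.1 CPM in starved surface ovaries. All 3 were called lower and were called lower in control fish as well. In the skeletal muscle list, 1 of 13 tested genes were called higher and 8 lower (4 lower without Tinaja ovary 2 or surface ovary 3, 5 without Tinaja ovary 3). Called genes made up 69.2% of the list, against 40.3% of all genes. MYOM2, a myomesin gene of the muscle sarcomere, had 0.907, 1.98 and 1.31 CPM in starved Tinaja ovaries, against 17.4, 27.4 and 32.6 CPM in starved surface ovaries. ckmb, muscle creatine kinase, had 10.9, 11.3 and 11 CPM in starved Tinaja ovaries, against 49.3, 29.1 and 35.2 CPM in starved surface ovaries. atp2a1, the calcium pump of muscle, averaged 0.733 ± 0.505 CPM in starved Tinaja ovaries and 13.3 ± 6.0 CPM in starved surface ovaries. The muscle genes that passed were far from complete, since myod1, mb, pvalb1, pvalb2 and pvalb4 had 0 reads in all 6 ovaries. In the liver list 0 of 7 tested genes were called higher and 4 lower, 57.1% of the list. The summed level was 4.4 to 5.58 CPM in starved Tinaja ovaries and 79.7 to 86.1 CPM in starved surface ovaries. ahsg2 supplied most of the sum in surface ovaries, and fgg, a fibrinogen gene, averaged 0.181 ± 0.061 CPM in starved Tinaja ovaries and 13.1 ± 1.25 CPM in starved surface ovaries. The other fibrinogen genes did not share the difference, since fgb had 2 reads over the starved Tinaja and 5 over the starved surface ovaries and fga had 11 and 6. fabp10a, the liver fatty acid-binding protein gene, had 0 reads in all 6 ovaries.

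**Figure D4:**
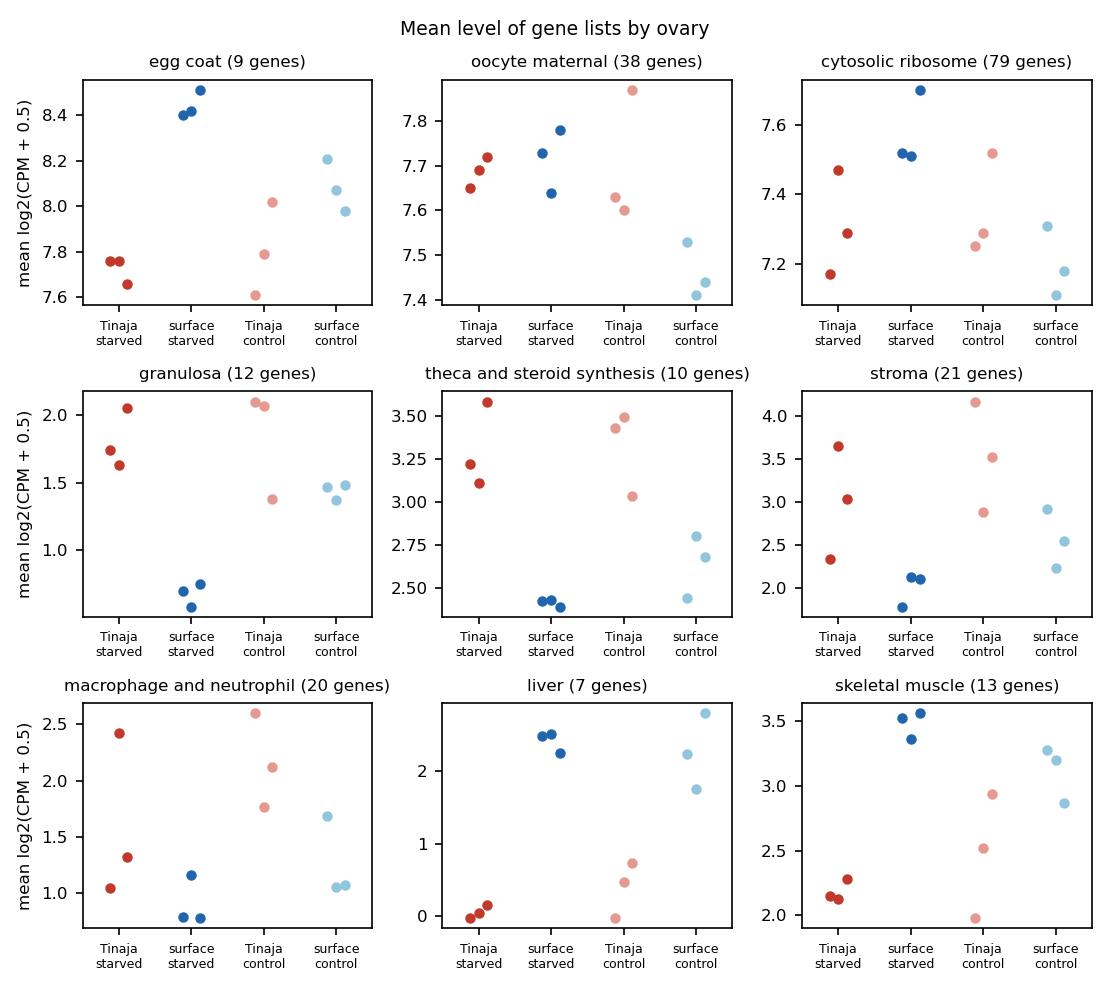
Mean log2(CPM + 0.5) of the tested genes of 9 lists in each of the 12 ovaries, in the order Tinaja starved, surface starved, Tinaja control, surface control. Within the starved pair, egg coat genes lie lower and granulosa markers higher in all 3 Tinaja ovaries, while macrophage markers spread across Tinaja ovaries.

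Leptin signalling reports fat stores to the body, and some of its genes were higher in starved Tinaja ovaries. In the leptin and melanocortin list, 5 of 11 tested genes were called higher and 0 lower (1 lower without surface ovary 1). That is 45.5% of the list against 40.3% of all genes, with a median log2 difference of 0.16. lepr, the leptin receptor, had 27.3, 22.6 and 29.7 CPM in starved Tinaja ovaries, against 9.51, 11.6 and 12.3 CPM in starved surface ovaries. All Tinaja ovaries stood above all surface ovaries, with a log2 difference of 1.25 ± 0.17 (edgeR adjusted p 0.00014). In control fish lepr had 28.5, 30.4 and 23.1 CPM in control Tinaja ovaries, against 19, 24.7 and 21.7 CPM in control surface ovaries, and that difference was not called. The test of the difference between the 2 contrasts did not call lepr (edgeR adjusted p 0.16). jak2a, the kinase that leptin receptors switch on, averaged 63.9 ± 6.79 CPM in starved Tinaja ovaries and 42.1 ± 5.81 CPM in starved surface ovaries, and CRTC1, a coactivator of the cyclic AMP response, averaged 18.7 ± 1.27 CPM in starved Tinaja ovaries and 9.87 ± 0.61 CPM in starved surface ovaries. Both were called higher. stat3, the transcription factor below jak2a, had 10.5, 12.5 and 62.8 CPM in starved Tinaja ovaries, against 7.74, 4.95 and 6.25 CPM in starved surface ovaries. Its log2 difference of 2.17 rested on Tinaja ovary 3, falling to 0.87 without it, and limma voom did not call it (adjusted p 0.108). The number of genes called higher was 3 without surface ovary 2 or 3. No gene of this list was called in control fish. The melanocortin receptor genes mc4r and MC4R had at most 2 reads in any library and were not tested.

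Insulin and mTOR signalling couples feeding to growth. In this list 11 of 59 tested genes were called higher and 8 lower, which is 32.2% of the list against 40.3% of all genes. igf1ra, a receptor for insulin-like growth factor, had 16.1, 11.5 and 14.6 CPM in starved Tinaja ovaries, against 6.79, 5.89 and 4.2 CPM in starved surface ovaries (log2 difference 1.32 ± 0.25, edgeR adjusted p 0.00154). GRB14, an adaptor that dampens insulin receptor signalling, had 15.8, 12.9 and 16.9 CPM in starved Tinaja ovaries, against 77.4, 77.9 and 93.6 CPM in starved surface ovaries (log2 difference -2.45 ± 0.31, edgeR adjusted p 0.000215). igf1ra was called higher and GRB14 lower, each with no overlap between the groups, which held for 52.5% of all genes. mtor, the growth kinase itself, averaged 269 ± 4.35 CPM in starved Tinaja ovaries and 349 ± 26.1 CPM in starved surface ovaries and was called lower, at -0.38. insra, an insulin receptor gene, had 129.7, 126 and 136 CPM in starved Tinaja ovaries, against 113, 119 and 99 CPM in starved surface ovaries. The insra groups did not overlap, but the difference was not called (log2 difference 0.25 ± 0.10, edgeR adjusted p 0.0707). The number called lower was 4 without Tinaja ovary 2 and 5 without Tinaja ovary 3 or surface ovary 3. Other single ovaries removed the lean toward higher. The numbers were 8 higher and 8 lower without Tinaja ovary 1. They were 8 higher and 9 lower without surface ovary 1, and 9 higher and 9 lower without surface ovary 2.

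Genes of fat and sugar metabolism changed in both directions, some of them by a wide margin. Among fatty acid and triglyceride genes, 22 of 67 tested genes were called higher and 13 lower (7 lower without Tinaja ovary 1, 8 without Tinaja ovary 3 or surface ovary 2). Called genes made up 52.2% of the list, against 40.3% of all genes. scd, the desaturase that makes monounsaturated fatty acids, had 8.94, 23.4 and 13.9 CPM in starved Tinaja ovaries, against 0.679, 0.402 and 0.108 CPM in starved surface ovaries. Its log2 difference was 5.29 ± 0.57 (edgeR adjusted p 3.21e-05), or 5.91 without surface ovary 1, and every Tinaja ovary was more than 10 times above every surface ovary. MLXIPL, a sugar-sensing transcription factor that turns on lipid synthesis, had 9.84, 5.58 and 5.25 CPM in starved Tinaja ovaries, against 0.407, 0.536 and 0.754 CPM in starved surface ovaries (log2 difference 3.55 ± 0.45, edgeR adjusted p 9.93e-05). In the other direction, elovl4a, an elongase of very long fatty acids, had 5.44, 6.82 and 7.71 CPM in starved Tinaja ovaries, against 59.5, 50.7 and 72.2 CPM in starved surface ovaries. acaa1, a thiolase of peroxisomal fat breakdown, averaged 0.782 ± 0.147 CPM in starved Tinaja ovaries and 7.19 ± 1.78 CPM in starved surface ovaries and was called lower as well. PPARG, the regulator of fat cells, averaged 13.2 ± 4.23 CPM in starved Tinaja ovaries and 7.18 ± 3.72 CPM in starved surface ovaries and was not called (edgeR adjusted p 0.0807). Among cholesterol synthesis genes, 5 of 27 tested genes were called higher and 7 lower, 44.4% of the list against 40.3% of all genes. hmgcra, the rate-limiting reductase, averaged 0.416 ± 0.136 CPM in starved Tinaja ovaries and 1.55 ± 0.308 CPM in starved surface ovaries and was called lower. sc5d, near the end of the pathway, averaged 12.1 ± 0.742 CPM in starved Tinaja ovaries and 4.73 ± 2.36 CPM in starved surface ovaries and was called higher. When single ovaries were left out, 2 to 4 cholesterol genes were called higher and 2 to 5 lower.

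Among glycolysis and gluconeogenesis genes, 14 of 54 tested genes were called higher and 10 lower (9 higher without surface ovary 1 or 2). That is 44.4% of the list against 40.3% of all genes. pdk4, a pyruvate dehydrogenase kinase gene, had 8.03, 8.81 and 3.61 CPM in starved Tinaja ovaries, against 0.951, 1.34 and 1.08 CPM in starved surface ovaries. PFKP, a phosphofructokinase of glycolysis, had 12, 14.5 and 14.6 CPM in starved Tinaja ovaries, against 3.12, 0.937 and 1.08 CPM in starved surface ovaries. Another gene under this symbol had 5 reads over the starved Tinaja and 19 over the starved surface ovaries and was not tested. pck2, the mitochondrial enzyme that starts glucose synthesis, had 61.9, 71.8 and 56.9 CPM in starved Tinaja ovaries, against 186, 134 and 154 CPM in starved surface ovaries. pdk4 and PFKP were called higher and pck2 lower, with log2 differences of 2.59 ± 0.43, 3.01 ± 0.43 and -1.31 ± 0.17, and PFKP moved to 3.74 without surface ovary 1. ldhba, a lactate dehydrogenase gene, had 336, 409 and 339 CPM in starved Tinaja ovaries, against 659.9, 645 and 761 CPM in starved surface ovaries and was called lower. All 4 of these genes were called the same way in control fish.

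Genes for the uptake of yolk and other nutrients differed in both directions. In the list for vitellogenin and lipoprotein uptake, 7 of 24 tested genes were called higher and 2 lower, which is 37.5% of the list against 40.3% of all genes. vldlr, the lipoprotein receptor that takes up yolk protein in egg-laying vertebrates, had 561, 601 and 552 CPM in starved Tinaja ovaries, against 694, 729.5 and 850.0 CPM in starved surface ovaries (log2 difference -0.41 ± 0.09, edgeR adjusted p 0.00378). In control fish vldlr averaged 601 and 628 CPM in Tinaja and surface ovaries and was not called. ctsba and ctsd encode cathepsins that process yolk in other fish. ctsba had 516, 518 and 501 CPM in starved Tinaja ovaries, against 239, 225 and 367 CPM in starved surface ovaries, and ctsd averaged 387 ± 5.19 CPM in starved Tinaja ovaries and 314 ± 13.4 CPM in starved surface ovaries. Both were called higher. Among nutrient transporters of the plasma membrane, 25 of 75 tested genes were called higher and 10 lower, with a median of 0.32. Called genes made up 46.7% of the list, against 40.3% of all genes. slc38a4, an amino acid transporter gene, had 234, 208 and 208 CPM in starved Tinaja ovaries, against 10.9, 5.76 and 7.43 CPM in starved surface ovaries (log2 difference 4.76 ± 0.16, edgeR adjusted p 1.79e-09). In control fish it had 217, 205 and 217 CPM in control Tinaja ovaries, against 7.11, 8.41 and 8.5 CPM in control surface ovaries, a difference of almost the same size. slc1a3a, a glutamate transporter gene, averaged 57.8 ± 15.3 CPM in starved Tinaja ovaries and 9.16 ± 1.79 CPM in starved surface ovaries and was called higher, while slc38a7, a lysosomal glutamine exporter gene, averaged 12.1 ± 3.05 CPM in starved Tinaja ovaries and 33.9 ± 1.32 CPM in starved surface ovaries and was called lower. Among carriers of the mitochondrial membrane, 14 of 48 tested genes were called higher and 7 lower, 43.8% of the list. slc25a44a, a carrier of branched-chain amino acids, averaged 39.1 ± 4.75 CPM in starved Tinaja ovaries and 15.6 ± 2.44 CPM in starved surface ovaries, slc25a25b, a calcium-regulated ATP carrier gene, averaged 153 ± 12.6 CPM in starved Tinaja ovaries and 77.4 ± 19.3 CPM in starved surface ovaries, and slc25a24, of the same carrier family, averaged 0.528 ± 0.296 CPM in starved Tinaja ovaries and 11.2 ± 1.49 CPM in starved surface ovaries. The first pair were called higher and slc25a24 lower.

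Clock and DNA repair genes share light-responsive members, and the genes named here differed in both directions. Among clock genes, 12 of 39 tested genes were called higher and 8 lower (7 higher without Tinaja ovary 1 or surface ovary 2, 5 lower without surface ovary 3). Called genes made up 51.3% of the list, against 40.3% of all genes. per2, a light-induced period gene in fish, had 76.8, 67.2 and 76 CPM in starved Tinaja ovaries, against 46.3, 39.5 and 43.1 CPM in starved surface ovaries (log2 difference 0.77 ± 0.18, edgeR adjusted p 0.00648). ciarta, a repressor of the clock, averaged 18.5 ± 1.86 CPM in starved Tinaja ovaries and 10.3 ± 1.04 CPM in starved surface ovaries and was called higher. arntl2, a partner of the clock protein, had 35.2, 45.2 and 40.2 CPM in starved Tinaja ovaries, against 81.3, 83.5 and 70.9 CPM in starved surface ovaries, and cry1a, a cryptochrome repressor gene, averaged 56.1 ± 3.37 CPM in starved Tinaja ovaries and 88.7 ± 6.25 CPM in starved surface ovaries. Both were called lower. hlfb, an output factor of the clock, had 36, 49 and 25 reads in starved Tinaja ovaries and 0, 0 and 1 in starved surface ovaries, a ratio of Tinaja to surface of 121 (95% counting interval 21.3 to 4830). Among DNA repair genes and photolyases, 17 of 59 tested genes were called higher and 6 lower (11 higher without Tinaja ovary 1 or surface ovary 3, and 3 lower without the second of these). These calls made up 39% of the list, against 40.3% of all genes. cry5, a photolyase that repairs DNA with light, had 84.7, 95.1 and 88.4 CPM in starved Tinaja ovaries, against 51.6, 52.1 and 54.8 CPM in starved surface ovaries (log2 difference 0.76 ± 0.09, edgeR adjusted p 5.16e-05). parp1, a sensor of DNA breaks, averaged 78.8 ± 7.53 CPM in starved Tinaja ovaries and 50.7 ± 2.71 CPM in starved surface ovaries, and ERCC6, of transcription-coupled repair, averaged 19.3 ± 2.21 CPM in starved Tinaja ovaries and 7.77 ± 1.3 CPM in starved surface ovaries. Both were called higher. xrcc3, of recombination repair, averaged 14.7 ± 1.62 CPM in starved Tinaja ovaries and 29.6 ± 1.39 CPM in starved surface ovaries and was called lower. ddb2, which recognises ultraviolet damage, was not called (log2 difference -0.21 ± 0.14, edgeR adjusted p 0.244). The labels do not state the time of day at which ovaries were taken.

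Protective genes were mixed. Of the antioxidant list, 8 of 43 tested genes were called higher and 15 lower, with a median of -0.26 (5 higher without surface ovary 1 or 3). Called genes made up 53.5% of the list, against 40.3% of all genes. A copy of txnrd3, a thioredoxin reductase gene, had 60.4, 61 and 61.2 CPM in starved Tinaja ovaries, against 124, 102 and 106 CPM in starved surface ovaries. GCLC, the rate-limiting enzyme of glutathione synthesis, averaged 74.1 ± 3.2 CPM in starved Tinaja ovaries and 109 ± 8.96 CPM in starved surface ovaries. hmox2a, a heme oxygenase gene, averaged 2.47 ± 0.646 CPM in starved Tinaja ovaries and 9.8 ± 2.41 CPM in starved surface ovaries. This copy of txnrd3, GCLC and hmox2a were called lower in starved and in control Tinaja ovaries, while the second copy of txnrd3 was called higher in both, at 1.95 in starved fish (edgeR adjusted p 0.00245). Of genes for heat shock and the unfolded protein response, 17 of 86 tested genes were called higher and 20 lower (13, 10 and 12 lower without Tinaja ovary 1, Tinaja ovary 3 and surface ovary 3). Calls covered 43% of that list. dnaja3b, a mitochondrial co-chaperone gene, had 17, 21.3 and 17.4 CPM in starved Tinaja ovaries, against 49, 48.5 and 43.5 CPM in starved surface ovaries and was called lower. dnajb6b, which keeps proteins from clumping, averaged 20.6 ± 2.64 CPM in starved Tinaja ovaries and 8.3 ± 0.699 CPM in starved surface ovaries, and pdia4, which forms disulfide bonds in the endoplasmic reticulum, averaged 429 ± 4.82 CPM in starved Tinaja ovaries and 314 ± 11.1 CPM in starved surface ovaries. Both were called higher. Of the autophagy list, 12 of 65 tested genes were called higher and 9 lower, which is 32.3% of the list against 40.3% of all genes. The balance turned in some settings. It was 7 higher and 8 lower without Tinaja ovary 3 or with no low-count filter. Without surface ovary 2 it was 8 higher and 9 lower, and without surface ovary 3 it was 9 higher and 10 lower. ULK2, a kinase that starts autophagy when nutrients run low, had 33.4, 28.9 and 37.7 CPM in starved Tinaja ovaries, against 12.6, 14.3 and 14.9 CPM in starved surface ovaries (log2 difference 1.25 ± 0.18, edgeR adjusted p 0.000242). epg5, which tethers autophagosomes to lysosomes, averaged 147 ± 8.22 CPM in starved Tinaja ovaries and 73.3 ± 10.4 CPM in starved surface ovaries, optn, a receptor for cargo, averaged 32.5 ± 0.312 CPM in starved Tinaja ovaries and 16.9 ± 1.62 CPM in starved surface ovaries, and ATG2B, which feeds lipid to the growing membrane, averaged 115 ± 2.78 CPM in starved Tinaja ovaries and 77.3 ± 4.29 CPM in starved surface ovaries. All 3 were called higher, and none of the 9 genes called lower was among the 4 of smallest p in the list. Of the lysosome list, 16 of 64 tested genes were called higher and 10 lower, which is 40.6% of the list. The proton pump that acidifies lysosomes was split, since its subunit gene atp6v1aa had 34.2, 66.4 and 62.7 CPM in starved Tinaja ovaries, against 16.2, 17.4 and 15.9 CPM in starved surface ovaries, while atp6v1b2 had 9.59, 12 and 11 CPM in starved Tinaja ovaries, against 38, 30.3 and 33.7 CPM in starved surface ovaries. Both differences were called and both were called the same way in control fish.

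Signalling and adhesion genes changed in both directions. In the TGF-beta and BMP list, 12 of 49 tested genes were called higher and 12 lower, 49% of the list against 40.3% of all genes. acvr2ba, an activin receptor gene, had 8.29, 5.09 and 7.38 CPM in starved Tinaja ovaries, against 80.5, 83.5 and 81 CPM in starved surface ovaries. tgfbr1b, a receptor for TGF-beta, had 25.8, 20.5 and 21.8 CPM in starved Tinaja ovaries, against 3.67, 2.14 and 3.45 CPM in starved surface ovaries. The receptors thus lay in opposite directions, with log2 differences of -3.56 ± 0.18 and 2.87 ± 0.26 and edgeR adjusted p of 8.12e-08 and 8.25e-06. bmp1b, a protease gene that frees BMPs and matures collagen, averaged 83.8 ± 14 CPM in starved Tinaja ovaries and 36.1 ± 5.07 CPM in starved surface ovaries and was called higher, and id3, a target of BMP signals, averaged 0.376 ± 0.123 CPM in starved Tinaja ovaries and 4.53 ± 1.33 CPM in starved surface ovaries and was called lower. In the list of ADAM, ADAMTS and matrix metalloproteinases, 7 of 30 tested genes were called higher and 4 lower (2 lower without any 1 of the Tinaja ovaries or surface ovary 1). That is 36.7% of the list against 40.3% of all genes. adam9, a membrane protease gene, had 127, 107 and 122 CPM in starved Tinaja ovaries, against 55, 64.9 and 60.2 CPM in starved surface ovaries. ADAMTS7 averaged 10.5 ± 5.27 CPM in starved Tinaja ovaries and 0.99 ± 0.287 CPM in starved surface ovaries, adamts10 had 0 reads in starved surface ovaries and was at least 35.6-fold higher, and timp2a, an inhibitor of these proteases, averaged 6.19 ± 2.2 CPM in starved Tinaja ovaries and 0.936 ± 0.374 CPM in starved surface ovaries. All 4 were called higher. In the cell junction list, 11 of 37 tested genes were called higher and 9 lower, 54.1% of the list. CDH4, a cadherin gene, averaged 25.3 ± 2.43 CPM in starved Tinaja ovaries and 5.36 ± 1.0 CPM in starved surface ovaries and PCDH20, a protocadherin gene, averaged 15.1 ± 0.905 CPM in starved Tinaja ovaries and 3.04 ± 1.23 CPM in starved surface ovaries, both called higher beside cdh7a, while CDH13 was lower.

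Among ion channels, 30 of 100 tested genes were called higher and 18 lower, against 20.3% and 20% of all genes. trpc1, a store-operated calcium channel gene, had 1.3, 2.98 and 2.13 CPM in starved Tinaja ovaries, against 23.4, 20.6 and 27.6 CPM in starved surface ovaries, trpa1a, a chemical and temperature sensor gene, had 0, 0.62 and 0.492 CPM in starved Tinaja ovaries, against 10.6, 8.3 and 12.9 CPM in starved surface ovaries, and cacnb1, a calcium channel subunit gene, averaged 1.1 ± 0.217 CPM in starved Tinaja ovaries and 13.4 ± 1.87 CPM in starved surface ovaries. These 3 genes were called lower, in contrast to GRIN2B. Without Tinaja ovary 1 the log2 difference of trpa1a was -4.2 and without Tinaja ovary 2 it was -5.48, against -4.79 with all ovaries. Among genes of antigen presentation and innate immunity, 14 of 52 tested genes were called higher and 6 lower. That is 38.5% of the list against 40.3% of all genes. sting1, a sensor adaptor for DNA in the cytosol, had 21.6, 18.9 and 10.8 CPM in starved Tinaja ovaries, against 0.136, 0 and 0.646 CPM in starved surface ovaries (log2 difference 5.83 ± 0.60, or 7.67 without surface ovary 3). NOS2, the inducible nitric oxide synthase, had 123, 173 and 107 CPM in starved Tinaja ovaries, against 56.8, 60.8 and 47.9 CPM in starved surface ovaries and was called higher too. tlr18, a fish Toll-like receptor gene, averaged 12 ± 1.1 CPM in starved Tinaja ovaries and 4.78 ± 0.87 CPM in starved surface ovaries and was called higher. irf1a, an interferon regulatory factor gene, averaged 3.74 ± 2.48 CPM in starved Tinaja ovaries and 15.9 ± 4.4 CPM in starved surface ovaries and was called lower, at -2.07, or -2.72 without Tinaja ovary 1.

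Pigment and eye genes were scarce in ovaries, with 20 of 82 tested, of which 4 were called higher and 5 lower. That is 45% of those tested against 40.3% of all genes. oca2, whose loss makes cavefish of several caves albino, had 32.6, 28.3 and 65.6 CPM in starved Tinaja ovaries, against 45.5, 45.9 and 29.1 CPM in starved surface ovaries. The groups overlapped and oca2 was not called (log2 difference 0.07, edgeR adjusted p 0.875), and its sign turned without Tinaja ovary 3 (-0.40), without surface ovary 3 (-0.12) and with limma voom (-0.02). MLANA, a melanosome gene, had 89, 84 and 39 reads in starved Tinaja ovaries and 2, 1 and 0 in starved surface ovaries, a ratio of Tinaja to surface of 77.9 (95% counting interval 26.3 to 381). sox10, a neural crest and pigment lineage gene, had 0, 2 and 1 reads in starved Tinaja ovaries and 37, 22 and 12 in starved surface ovaries, a ratio of surface to Tinaja of 21.5 (95% counting interval 7.05 to 107). Both were called, in opposite directions. pax6b, an eye development gene, had 7, 21 and 5 reads in starved Tinaja ovaries and none in starved surface ovaries, at least 12.1-fold higher.

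The same population contrast in control fish, which shares no library with the starved one, called 4738 genes, 32.4% of those tested, 2344 higher (16%) and 2394 lower (16.4%) in Tinaja. Both contrasts came from the same fit and share its estimate of the spread, so their calls are not independent. Fits on the 6 libraries of each contrast alone called 5562 genes in starved and 4131 in control fish. Of the 5894 genes called in starved fish, 3286 (55.8%) were also called in the same direction in control fish, which is 69.4% of the control calls. A further 2601 genes were called in starved fish alone, of which 2127 had the same sign in control fish. Across genes the log2 differences of the 2 contrasts correlated at 0.865 (Pearson) and 0.753 (Spearman), given as a description, since genes are not independent replicates. The test of the difference between the contrasts, starved minus control, called 10 genes, 0.0684% of those tested (3 with a positive difference, 0.0205%, and 7 with a negative one, 0.0479%), while 2264 had an unadjusted p under 0.05. DESeq2 called 261 genes in that test. Leaving out 1 library gave between 8 and 52 genes, with the highest count without control surface ovary 1 and counts of 26 without control Tinaja ovary 1, 22 without surface starved ovary 3, 21 without Tinaja starved ovary 1 and 16 without surface starved ovary 1 or 2. A gene called in starved fish alone is therefore not shown to differ between starved and control fish, and this holds for the egg coat, granulosa, ribosome and leptin genes above.

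**Figure D5:**
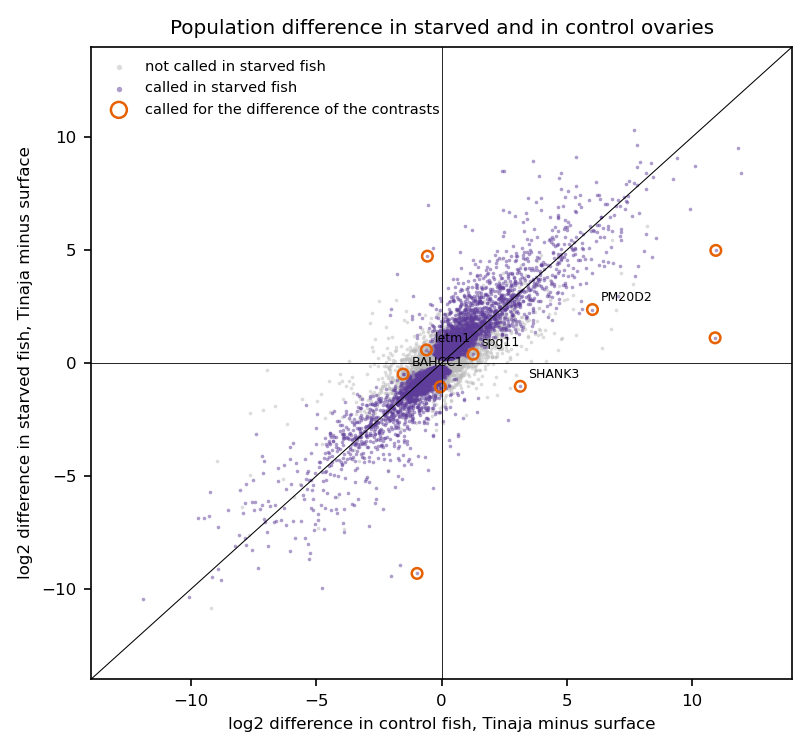
The log2 difference between Tinaja and surface ovaries for 14627 genes, in control fish on the horizontal axis and in starved fish on the vertical axis, with the line of equal values. Purple points were called in starved fish, and the 10 orange circles mark genes called for the difference between the contrasts.

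Of the 10 genes, 5 carry a gene name. SHANK3, a scaffold gene of synapses, had 5.44, 3.72 and 6.24 CPM in starved Tinaja ovaries, against 8.69, 9.37 and 13.2 CPM in starved surface ovaries. In control fish it had 5.15, 6.6 and 6.88 CPM in control Tinaja ovaries, against 1.21, 0.407 and 0.411 CPM in control surface ovaries. It was called lower in starved and higher in control Tinaja ovaries, with a difference between the contrasts of -4.17 on the log2 scale (edgeR adjusted p 0.0115). letm1, a mitochondrial ion exchanger gene, went the other way, with 21.8, 20.1 and 24.3 CPM in starved Tinaja ovaries, against 13.9, 14.5 and 15.8 CPM in starved surface ovaries. In control fish letm1 had 16.5, 15.9 and 16.7 CPM in control Tinaja ovaries, against 23.9, 25.8 and 25.1 CPM in control surface ovaries, and the difference between the contrasts was 1.19 (edgeR adjusted p 0.0192). spg11, PM20D2 and a copy of BAHCC1 kept their direction with a different size. spg11 differed by 0.39 in starved and 1.26 in control fish, PM20D2 by 2.37 and 6.03, and BAHCC1 by -0.49 and -1.54, all as log2 differences of Tinaja minus surface. Of 7 genes called in opposite directions in starved and control fish, 4 carry a gene name, namely SHANK3, letm1, SYDE1 and MBD5. SYDE1 differed by 1.09 in starved and -0.96 in control fish, and MBD5, a methyl-binding domain gene, by 0.38 and -0.31. Neither was called for the difference itself (edgeR adjusted p 0.132 and 0.151).

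Some copies of a gene under the same symbol differed in opposite directions. There were 236 symbols carried by 2 or more tested genes, 491 genes in all. For 59 of these symbols at least 2 copies were called in starved fish, in one direction for 30 symbols and in opposite directions for 29, which is 12.3% of the 236. Over all genes tested 20.3% were called higher and 20% lower, and whether copies split more often than unrelated genes was not tested. The 29 include Metazoa_SRP, the name of an RNA class. The paired genes named here were chosen after their values were seen. One copy of BPTF, a chromatin remodeller gene, had a log2 difference of -0.39 and the other 0.31. Of 6 tested copies of ctsl.1, a cathepsin gene, 2 were lower, at -4.96 and -3.85, and 1 was higher, at 3.89. Reads that mapped to several places were entered apart from the genes, so reads shared by near-identical copies may be missing from each copy. No source used here gives the strand setting, so single copies and overlapping genes are uncertain.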

How the data were processed

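RNA was measured in 12 ovary libraries, of which 6 form the starved comparison. Per the labels' protocols, ribosomal RNA was removed and strand-marking libraries were built. Raw counts, whole reads for each of 27420 genes, were deposited by the authors, along with a scaled signal table of 14627 genes, whose values equal edgeR CPM with trimmed-mean scaling (largest relative difference 4.97e-15). The deposited scaled values gave whole reads in 100% of cells of the table, within 0.001, and a test on the recovered reads called the same number of genes, 5894. STAR 2.7.10b and RSEM appear in the submitters' processing notes, with no role stated. No source used here gives the genome build, annotation or strand setting, and no sequences are shown. The 4 summary entries of unmapped, multimapped, unassigned and ambiguous reads were left out.

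The main test on the counts used edgeR 4.0.16 under R 4.3.3 (low-count filter filterByExpr at 10 counts, robust quasi-likelihood, 1 mean for each of 4 groups over 12 libraries, 8 residual degrees of freedom), and p-values were adjusted over all genes tested at 0.05. Log2 differences are Tinaja minus surface and their standard errors are the difference divided by the square root of F. CPM values carry the sample SD (n = 3). Fold bounds use 3 reads over a group as the floor. The procedure was tested on simulated data. Alternatives were upper-quartile scaling, limma 3.58.1 voom, DESeq2 1.42.0, no filter, thinned libraries, the 6 libraries alone, a replicate block and leaving out each library. Genes named were the 8 largest rises and falls with a mean of at least 5 CPM and no overlap, up to 4 genes of smallest p per list, key genes, genes with no reads on one side, and genes called for the difference between contrasts. A gene that this rule names is not reported here. The members, lists and key genes were chosen with earlier results of these data known, and 8 entries matched by name only were removed after values were seen.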

Additional observations from a re-analysis of the deposited data

Results flagged for a closer look

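The difference between the population contrasts of starved and control fish was called for 10 genes, and the 5 with a gene name had differences of -4.17 for SHANK3, -3.66 for PM20D2, -0.87 for spg11, 1.19 for letm1 and 1.05 for BAHCC1, as starved minus control on the log2 scale (edgeR adjusted p 0.0115, 0.0192, 0.0115, 0.0192 and 0.0129). What set them apart is the test of the difference itself. PM20D2 and BAHCC1 each have a second copy under the same symbol, and reads that mapped to both copies may be missing from their counts.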

How the results depend on the processing

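The 5894 calls in starved fish became 3447 at an adjusted p under 0.01 and 1862 when the test asked for a difference beyond 1.5-fold. With upper-quartile scaling 3165 were higher and 2620 lower, and beyond 1.5-fold 1102 were higher and 760 lower. Under the other settings with all libraries the calls numbered 5430 to 6012, and 4710 to 5093 when 1 library was left out. The 4738 control calls became 3708 to 4039 when 1 library was left out. The 10 calls for the difference between the contrasts became 261 with DESeq2 and 8 to 52 when 1 library was left out. Deviations of same-numbered starved libraries correlated at 0.0751, 0.0218 and 0.0211 and those of control libraries at 0.0361, 0.0503 and -0.0608. Whether same-numbered libraries share a tank or family was not tested. With the replicate block the counts were 5430, 4377 and 10. Of 193 genes followed, 185 were called and 173 of these kept their call under every setting with 0.05 as the threshold. The sign turned for nr3c1 without Tinaja ovary 3 (-0.0468, and 0.358 at its highest without Tinaja ovary 2) and for oca2 with limma voom (-0.0248), without Tinaja ovary 3 (-0.396) and without surface ovary 3 (-0.124, and 0.288 at its highest without Tinaja ovary 2), and neither gene was called; the cause was not tested. Depth limits values near 3 reads. The median standard error of a log2 difference was 0.173 over all genes, 0.881 for genes averaging under 1 CPM and 0.0798 for genes at 100 CPM or more.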

Other observations

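Of the 10 genes called for the difference between the contrasts, 5 have an identifier and no gene name, and the pair given here was chosen after the values were seen. ENSAMXG00000032655 had 28.8, 30.4 and 30.8 CPM in starved Tinaja ovaries, against 13.3, 15.8 and 12.4 CPM in starved surface ovaries. In control fish it had 30, 33.3 and 34.5 CPM in Tinaja ovaries and no read in the 3 surface ovaries (edgeR adjusted p 2.90e-06 for the difference between the contrasts). ENSAMXG00000016415 had no read in the 3 starved Tinaja ovaries, against 9.37, 6.83 and 15.7 CPM in starved surface ovaries. In control fish it had 10.7, 7.32 and 7.03 CPM in Tinaja ovaries and 19.2, 10.7 and 19.6 CPM in surface ovaries (edgeR adjusted p 0.0129). In each gene a single group of 3 ovaries was at 0 while the other groups were not.

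Genes without a name were called about as often as genes with one. Of 3159 tested genes without a symbol 40.5% were called in starved fish, and of 10977 genes that alone carry their symbol 40% were. Among the 491 genes that share a symbol with another tested gene 45.2% were called.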
